A study of Mus musculus with 27 samples.

Results

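The replication-dependent histone genes were followed here in single myofibers of the tibialis anterior, a fast muscle of the lower leg. The members are the probes whose gene name on the array begins with Hist1h, Hist2h, Hist3h or Hist4h, the old names of the clustered histone genes. The rule took 51 of the 55681 probes of the array that are no controls, and these name 47 genes: 6 probes are for the linker histone H1, 15 for H2A, 11 for H2B, 8 for H3 and 11 for H4. The rule looks at the name only and used no measured value.

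Core histones H2A, H2B, H3 and H4 wrap DNA into nucleosomes, and H1 binds the linker DNA between them. Cells make most of this protein while DNA is copied, from clustered genes without introns whose RNA ends in a conserved stem-loop instead of a poly(A) tail. The stem-loop binding protein SLBP and the U7 snRNP direct the cut that forms this end. SMN, the protein of Smn1, is known for loading Sm proteins onto snRNAs, and U7, with its own Lsm10 and Lsm11, is among them. Myofibers do not divide, although some of these genes, such as Hist1h2bc and Hist1h1c, are known to make polyadenylated RNA in cells that have left the cell cycle.

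Each of 27 arrays held the amplified RNA of 1 myofiber of a male mouse. The WT group had 8 myofibers from 2 mice, 4 from each. The Smn1deltaSKM group had 12 myofibers, 4 from each of 3 mice with a skeletal muscle knockout of Smn1, which by the study's methods carried Smn F7/F7 and Cre under the human skeletal actin promoter (HSA). The Smn1deltaSKM+AFS group had 7 myofibers from 2 mice (4 and 3) of that genotype that received amniotic fluid stem (AFS) cells, by the methods c-kit+ GFP+ cells through the tail vein. The labels give an age of 3 months for every mouse, while the methods place the injection at 3 months and the killing of the treated mice 1 month later. For the WT group the labels say wild type and the methods name C57BL/6 GFP+ mice as a source of myofibers, while the study's results speak of littermates as controls, so the strain of these mice was not settled. The mouse was the unit of each test, and myofibers of 1 mouse were averaged first.

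All 8 WT arrays lay on 1 slide and were scanned on a day with no other group, so genotype and batch cannot be told apart for any comparison with WT. The share of all probes well above background ran from 44.9% to 64.9% on WT arrays (median 47.5%), from 43.4% to 74.1% on Smn1deltaSKM arrays (median 62.2%) and from 51.0% to 59.2% on Smn1deltaSKM+AFS arrays (median 55.1%). WT fiber 8 had the highest WT share, and the summed level of its fibroblast markers reached 5.92 on the log2 scale, while WT mouse 1 stayed at or below -0.54. Of the 6 myofiber markers, which include Acta1 and Ckm, 5 or 6 were well above background on each array. The targeted gene has a pair of probes: 1 differed by 0.18 between Smn1deltaSKM and WT (SE 0.36, limma adjusted p = 0.733), and the other by -1.69 (SE 0.37, adjusted p = 0.0192), and which of them lies in the floxed exon was not tested.

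A probe of a histone gene can lie before the stem-loop, over it or beyond it, and a probe beyond it reads RNA that the cut would remove. The stem-loop probes below are shown because they hold the processing signal itself. The motif searched was the arm GGNNC, the loop TTTTN and the arm AGNNCC in a row (N is any base), on the strand of the probe, whole or as a piece of at least 9 bases at an end of the probe, with at most 1 mismatch. Of all probes of the array 1.53% held it or a piece. The whole motif without a mismatch was in 5 probes, and 4 of these were histone probes. Each window is 30 bases of a 60-base probe, written 5′ to 3′ in the sense of the RNA with the motif bases in capitals, and positions are those of the array's annotation on the mm9 build.

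Hist1h3i, chr13:21874784-21874813, minus strand: ataacaaaaGGCTCTTTTCAGAGCCccctc

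Hist2h2aa1, chr3:96049949-96049978, plus strand: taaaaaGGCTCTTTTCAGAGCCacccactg

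Hist2h2bb, chr3:96074086-96074115, plus strand: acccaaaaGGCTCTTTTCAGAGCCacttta

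Hist1h3a, chr13:23853756-23853785, minus strand: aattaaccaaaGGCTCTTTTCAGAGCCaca

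Hist1h1t, chr13:23788373-23788402, plus strand: gccagttttcaaaaacccaaaGGCTGTTTT

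The first 4 windows hold the same 16 motif bases, with different flanks. The Hist1h1t probe ends with a piece of 9 bases, the shortest counted, and with 1 mismatch, a G where the arm GGNNC has C. Its place over the stem-loop and the limit of 730 for H1 rest on this piece alone. By this search 8 histone probes lay over the stem-loop. A further 31 ended before it, and 12 began at or after base 478 of the transcript (730 for H1), the nearest end of a stem-loop seen in these probes. That position is a guide and not a proof, since leaders differ in length: 1 probe starting at base 409, of Hist1h3f, still holds the start of the coding part.

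At a cut of at least 50 matching bases without gaps, a pair of sets of probes nearly share a sequence. This limits how far their values can be read as those of single genes. Other probes, such as those of Hist1h2ag, Hist2h2ac, Hist1h4d and Hist1h4j, share shifted or shorter stretches with these sets and fall under the cut. The probes of Hist1h4c and Hist1h4k at transcript base 36 differ at 8 of 60 bases, shown in capitals in the Hist1h4c probe. They are given because Hist1h4c is 1 of the probes called below.

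Hist1h4c, chr13:23790223-23790282, minus strand: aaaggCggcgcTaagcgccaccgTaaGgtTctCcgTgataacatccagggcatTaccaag

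Hist1h4k, chr13:21842279-21842338, minus strand: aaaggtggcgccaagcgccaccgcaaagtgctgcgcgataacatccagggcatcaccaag

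The end of the H2A coding part was even closer. The probes of Hist1h2af, Hist1h2ak (base 333) and Hist1h2an each differ from that of Hist1h2ah at 3 of the 54 bases they share, and that of Hist2h2aa2 at 5. Capitals mark those bases in Hist2h2aa2.

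Hist1h2ah, chr13:22127035-22127094, minus strand: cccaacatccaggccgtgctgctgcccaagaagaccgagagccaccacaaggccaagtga

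Hist2h2aa2, chr3:96049837-96049896, plus strand: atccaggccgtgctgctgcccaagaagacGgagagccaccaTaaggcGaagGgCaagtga

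Histone probes were detected far more often than the average probe of the array. Of the 51 probes, 37 (72.5%) were well above background on all 27 arrays, against 29.7% of all probes, and 4 (7.84%) were so on none, against 15.5%. Detection followed the place of the probe: 29 of 31 probes before the stem-loop were on all arrays, 2 of 8 over it and 6 of 12 beyond it. All 11 H4 probes were on every array. WT arrays had 40 to 45 of the 51 probes, Smn1deltaSKM arrays 42 to 46 and Smn1deltaSKM+AFS arrays 39 to 44, so the groups overlapped.

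**Figure D1:**
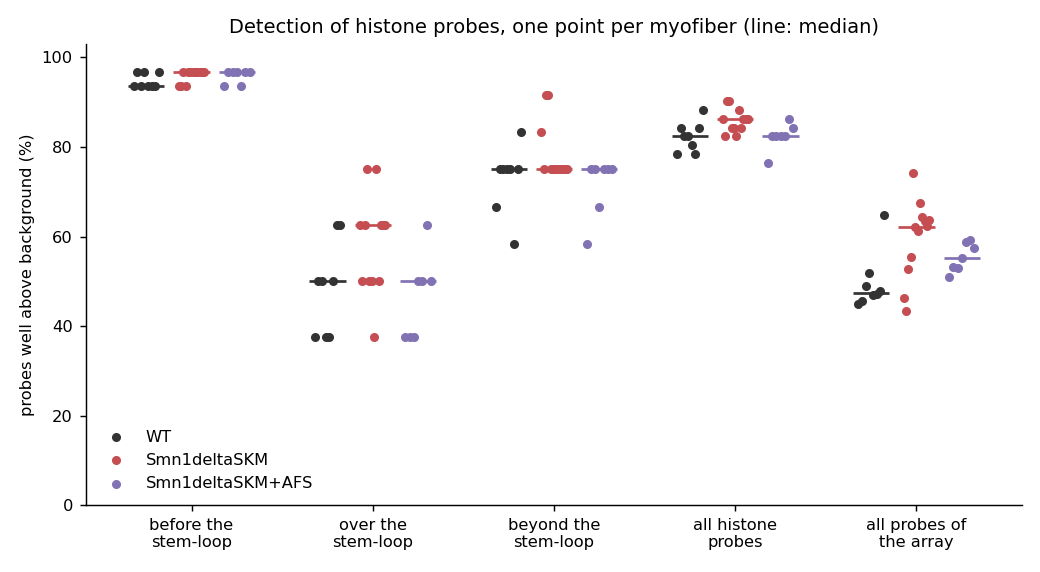
Percent of probes well above background on each array, one point per myofiber and a line at the group median, for histone probes before, over and beyond the stem-loop, for all 51 histone probes and for all probes of the array. At least 29 of the 31 probes before the stem-loop are detected on every array, while those over it lie between 3 and 6 of 8.

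The levels below are log2 processed signals minus the 75th percentile of the array, so 0 is the 75th percentile of that array. Levels of different probes are not compared, since each probe binds its target in its own way. The H4 probe of Hist1h4i at base 483 held 6.93 to 7.18 in the 4 myofibers of Smn1deltaSKM mouse 1, 6.68 to 7.19 in mouse 2 and 7.03 to 7.10 in mouse 3. In WT its lowest value was 4.97 in fiber 2 and its median 7.37 in mouse 1 and 7.58 in mouse 2. WT fiber 2 carried an outlier flag for this probe and did not enter its fit. The probe lay beyond the stem-loop and holds a poly(A) signal (AATAAA or ATTAAA, found in 13.7% of all probes).

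Before the groups are compared, 1 mouse has to be set apart. In Smn1deltaSKM mouse 1 histone levels were higher than in the other 2 mice of its genotype. Of the 47 histone probes on at least 1 array, 26 (55.3%) had all 4 myofibers of mouse 1 above all 8 myofibers of mice 2 and 3, against 7.64% of all such probes. Among probes on all arrays the counts were 22 of 37 histone probes (59.5%) and 11.9% of all probes. For mouse 2 the same count was 0 histone probes (1.63% of all probes), and for mouse 3 it was 1 (2.10%). By class, 8 of 11 H4 probes, 9 of 13 H2A, 6 of 11 H2B, 2 of 5 H1 and 1 of 7 H3 were in the 26. Of the 26, 20 were in neither near-identical set. Some of these, such as Hist1h2ag, Hist2h2ac, Hist1h4d and Hist1h4j, still share long stretches with the sets, so the 26 are not separate readings. These values are a description, since mouse 1 was singled out after its values were seen.

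Hist1h3i, whose probe lies over the stem-loop, showed the widest separation of the tested probes. It held 2.34 to 4.29 in mouse 1, and no value above -0.03 in any of the other 23 myofibers. The probe of Hist1h2bg, an H2B gene, beyond the stem-loop, held 0.69 to 1.92 in mouse 1 and at most -0.87 elsewhere. A further H2B probe, Hist3h2ba, was well above background on the 4 arrays of mouse 1 and on none of the other 23. It lay at -1.82 to 0.46 there, and its measured signal elsewhere was at most -4.31. Hist1h2bp was the last of the 4 histone probes with every myofiber of mouse 1 above all others (1.41% of all probes), but only 2 of these 4 arrays had it well above background. All 4 lay over or beyond the stem-loop.

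For some coding probes of H4, mouse 1 lay close to or above WT rather than far above it. For Hist1h4k at base 252 the 4 myofibers of mouse 1 lay at 6.57 to 8.05, those of mice 2 and 3 at 4.52 to 5.84 and the WT myofibers at 5.08 to 7.11. For Hist2h4 at base 230 they lay at 6.25 to 7.63, 4.54 to 5.87 and 3.78 to 6.77. In both cases mouse 1 overlapped WT and did not overlap the other Smn1deltaSKM mice. Other H4 probes did not share this pattern: for Hist1h4c mouse 1 lay at 2.35 to 4.42 and overlapped mice 2 and 3, and for Hist2h4 at base 3 it lay at 0.33 to 1.21, while mice 2 and 3 lay at 1.11 to 1.5.

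**Figure D2:**
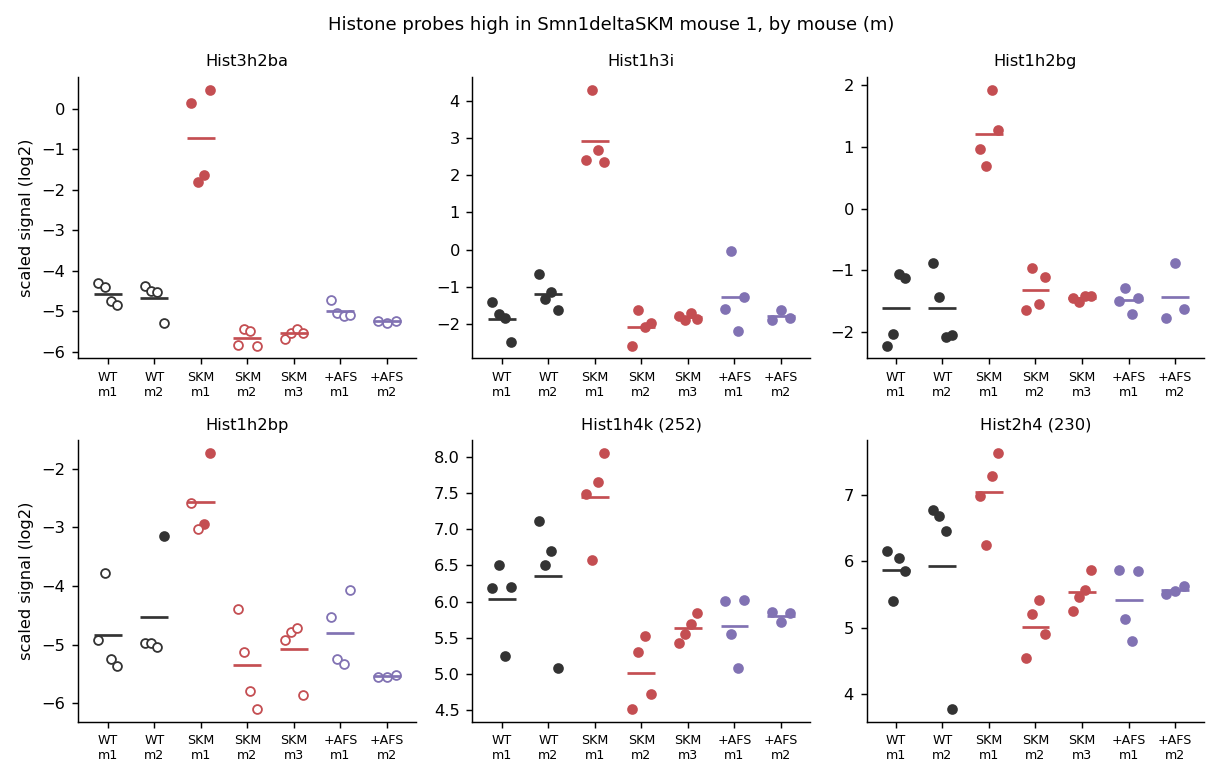
Scaled log2 signal of 6 histone probes in every myofiber, by mouse (m), with a line at the mouse mean; SKM is Smn1deltaSKM, +AFS is Smn1deltaSKM+AFS, and open points were not well above background. Hist1h3i, Hist1h2bg and Hist3h2ba are above all other myofibers in Smn1deltaSKM mouse 1, while the H4 probes of Hist1h4k and Hist2h4 overlap WT there.

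Of the arrays of mouse 1, 3 shared a slide of their own and an early scan day. The array of fiber 4 was scanned on the later day, as were all arrays of mice 2 and 3, but on a different slide. No array of mouse 1 shared a slide with mice 2 and 3, so mouse and slide cannot be told apart here. Fiber 4 alone lay above the other 8 myofibers for 39 of 47 histone probes (83.0%), against 19.0% of all probes. The Smn1deltaSKM+AFS arrays that shared the early scan day or the slide of fiber 4 (fibers 2, 3 and 4) had at most -0.03 for Hist1h3i. Other probes differed. Treated fiber 4 had 6.07 for Hist1h2af, against at most 5.50 in the other treated myofibers and 5.54 in mice 2 and 3. Treated fiber 3 had 0.51 for Hist2h2be, within the 0.14 to 2.61 of mouse 1. The part of slide and scan day was not tested. Without scaling, the count of histone probes with all of mouse 1 above mice 2 and 3 was 16 of 47 (3.42% of all probes). With quantile normalization it was 14 of 47 (7.61%). The summed level of the 20 listed genes of cycling cells lay at 4.24 to 4.64 in mouse 1 and at 2.90 to 3.76 in the other 6 mice. The sum adds signals before the log, so the brightest genes weigh most. Of the 20, 9 to 15 were well above background on an array of mouse 1, 13 to 14 in mouse 2 and 13 to 15 in mouse 3. Ccna2, Ccne2 and Cdc6 were so on no array. Pcna reached 3.09 in Smn1deltaSKM and at most 1.95 in the other groups. Of these genes, Mcm4, a subunit of the replicative helicase, lay at 0.80 to 3.50 in mouse 1 and at most 1.21 elsewhere. Rrm2, a subunit of ribonucleotide reductase, was well above background on 3 of its 4 arrays, on 2 of WT mouse 1 and on none of the others. The proliferation marker Mki67 lay at -3.22 to -2.01, within the range of the other mice. Slbp, named after its values were seen, lay at 0.34 to 1.22 against at most -0.02 in mice 2 and 3. It reached 0.65 in WT and 0.61 in Smn1deltaSKM+AFS, so mouse 1 overlapped both of these groups. The part of these values in the histone levels was not tested.

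The comparison of Smn1deltaSKM with WT asks what the loss of Smn1 in the myofiber goes with. Histone probes were lower more often than higher. A probe was tested where at least 21 of the 27 arrays had a value, as for 40 of the 51 histone probes, and called at an adjusted p under 0.05 by limma with Benjamini-Hochberg adjustment over all 22154 probes tested. Of the 40, 6 (15.0%) were called, 1 higher and 5 lower, against 22.0% of all probes tested, so the share called was no larger than the background. By direction the background was 7.38% higher and 14.6% lower. The median difference over the 40 was -0.31 on the log2 scale, beside -0.15 over all probes tested, and 28 of 40 (70.0%) were below 0, against 56.0%.

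Among the linker histones, Hist1h1e fell and Hist1h1t rose. Hist1h1e, a common somatic H1, had a lowest, median and highest value of 0.76, 1.16 and 1.72 in WT mouse 1 and of 0.17, 1.69 and 1.87 in WT mouse 2. In Smn1deltaSKM mice 2 and 3 no myofiber exceeded -0.20, while mouse 1 ranged from -0.44 to 1.26 and overlapped WT. The difference of the mouse means was -1.48 (SE 0.38, limma adjusted p = 0.0309), 0.36 times the WT level. The probe covers the end of the coding part, with the stop codon as its last 3 bases in capitals.

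Hist1h1e, chr13:23713707-23713766, minus strand: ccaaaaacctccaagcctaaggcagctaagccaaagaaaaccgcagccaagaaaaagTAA

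Hist1h1t, the testis linker histone, was the probe with the largest rise, and its window with the piece of the motif is printed above. In WT mouse 1 it ran from -3.80 to 1.29 and in WT mouse 2 from -3.0 to -1.05, and on 1 array of each of these mice it was not well above background, so those 2 values did not enter the fit. In Smn1deltaSKM it lay at 0.43 to 1.79 in mouse 1, 2.81 to 3.04 in mouse 2 and 3.12 to 3.67 in mouse 3. The difference was 3.04 (SE 0.78, adjusted p = 0.0301), 8.24 times the WT level, and with the 2 dim WT values kept at their measured signal, in a fit over all 55681 probes, it was 3.74 (SE 0.67, limma adjusted p = 0.0115). Mouse 1, high for most histones, was the lowest of the 3 mice here, and mouse 3 was above all 23 other myofibers (0.425% of all probes on at least 1 array).

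Of the core histones, the largest fall in an intact gene was that of Hist1h4c, an H4 gene. Its WT myofibers lay at 4.56 to 5.34 in mouse 1 and at 3.13 to 5.45 in mouse 2, where the lowest value was that of fiber 8. In Smn1deltaSKM it held 2.35 to 4.42 in mouse 1, 1.61 to 2.45 in mouse 2 and 2.39 to 3.57 in mouse 3. Apart from WT fiber 8, every WT myofiber was above every Smn1deltaSKM myofiber. The difference was -1.93 (SE 0.42, adjusted p = 0.0191). The probe of Hist1h4k that differs from it at 8 bases gave -1.05 (SE 0.57, adjusted p = 0.208).

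The other called probes were those of Hist1h2bc, Hist2h3c1 and Hist2h3c2-ps. Hist1h2bc, an H2B gene whose probe lies beyond the stem-loop, had 2.93 to 4.13 in WT mouse 1 and 3.05 to 3.64 in WT mouse 2, against 2.32 to 3.12, 1.49 to 2.21 and 1.21 to 2.26 in the 3 Smn1deltaSKM mice (difference -1.41, SE 0.36, adjusted p = 0.0289). Only the highest myofiber of mouse 1 reached the WT range. Hist2h3c1, which codes for H3.2, fell by 1.22 (SE 0.32, adjusted p = 0.0318), with WT medians of 2.68 and 3.81 and Smn1deltaSKM medians of 2.03, 1.73 and 1.69. Hist2h3c2-ps, by its name a pseudogene, fell by 2.01 (SE 0.42, adjusted p = 0.0178). It was lowest in mouse 1, at -2.83 to -1.25, so that this mouse was not high for all histone probes.

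**Figure D3:**
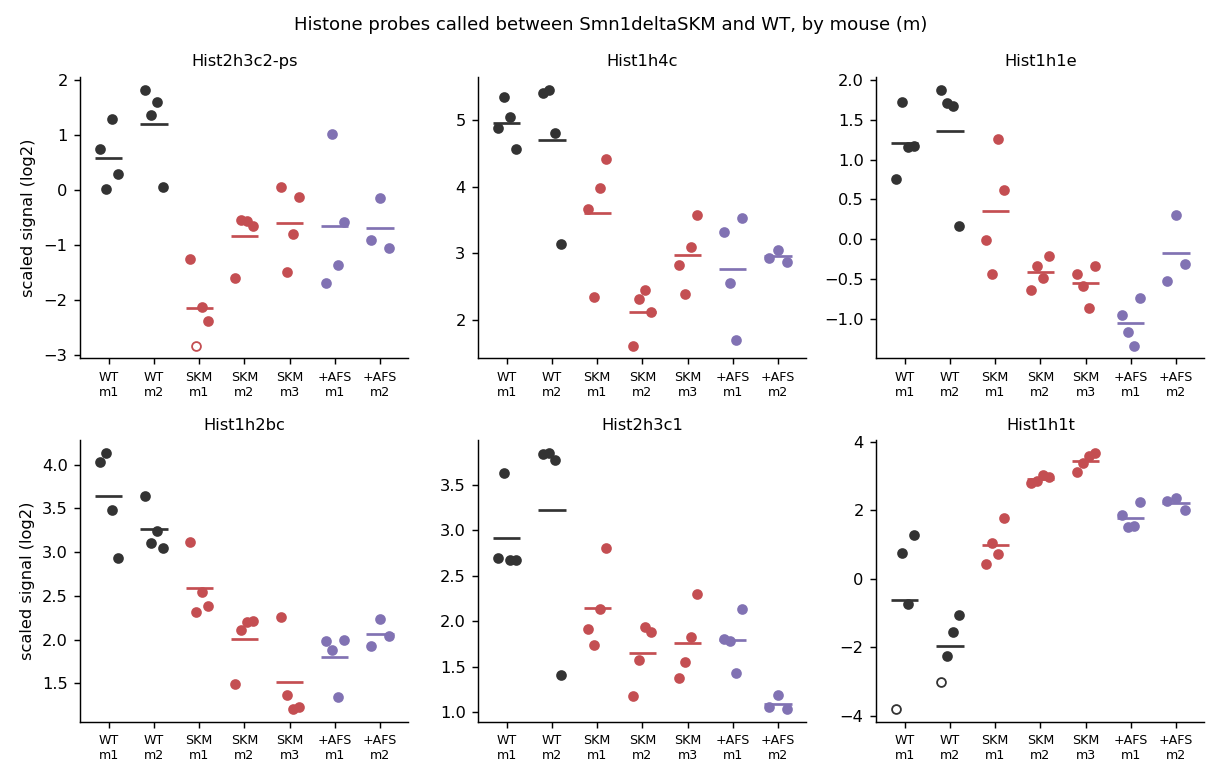
Scaled log2 signal of the 6 histone probes called between Smn1deltaSKM and WT, in every myofiber by mouse (m), with a line at the mouse mean; SKM is Smn1deltaSKM, +AFS is Smn1deltaSKM+AFS, and open points were not well above background. Hist1h1t is the 1 probe that is higher than in WT, and for the 5 others all mouse means of both knockout groups lie below both WT mouse means.

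Over the H4 class 10 of 11 probes were below 0 and 1 was called, with a median of -0.50. H3 had 5 of 6 below 0 with 2 called, H2B 4 of 7 with 1 called, H2A 7 of 11 with 0 called (1 with an unadjusted p under 0.05, limma) and H1 2 of 5 with 2 called. The largest H4 difference after Hist1h4c was that of Hist4h4, -1.60 (SE 0.61, adjusted p = 0.0917), with 1.82 to 2.88 in mouse 2, 3.00 to 3.56 in mouse 3, 4.25 to 5.38 in mouse 1 and 3.91 to 5.83 in WT. The bright H4 probes of Hist1h4k (base 252, -0.16) and Hist2h4 (base 230, -0.03) and the H2A probes of Hist1h2ah (0.11), Hist1h2af (0.33) and Hist2h2aa2 (-0.23) had adjusted p between 0.562 and 0.970. In 14 of the 40 all Smn1deltaSKM mice lay below both WT mice (34.1% of all probes with a value in each mouse), and in 2 all lay above (21.4%).

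These counts rest on the mice that enter. Without Smn1deltaSKM mouse 1, 17 of 40 (42.5%) were called, 1 higher and 16 lower, with a median of -0.69, beside 44.2% of all probes called and 26.4% called lower. Leaving out mouse 2 or mouse 3 left 2 calls each (5%), beside 8.78% and 9.9% of all probes, and leaving out either WT mouse left 0 among the histones and 0 among all probes. Without WT fiber 8 there were 10 calls (25%), 9 of them lower, beside 26.5% of all probes called and 17.8% called lower. Without the 3 Smn1deltaSKM arrays of the early scan day, so that mouse 1 is fiber 4 alone, there were 5 calls (28.5% of all probes), and the median was -0.015, above the -0.17 of all probes.

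**Figure D4:**
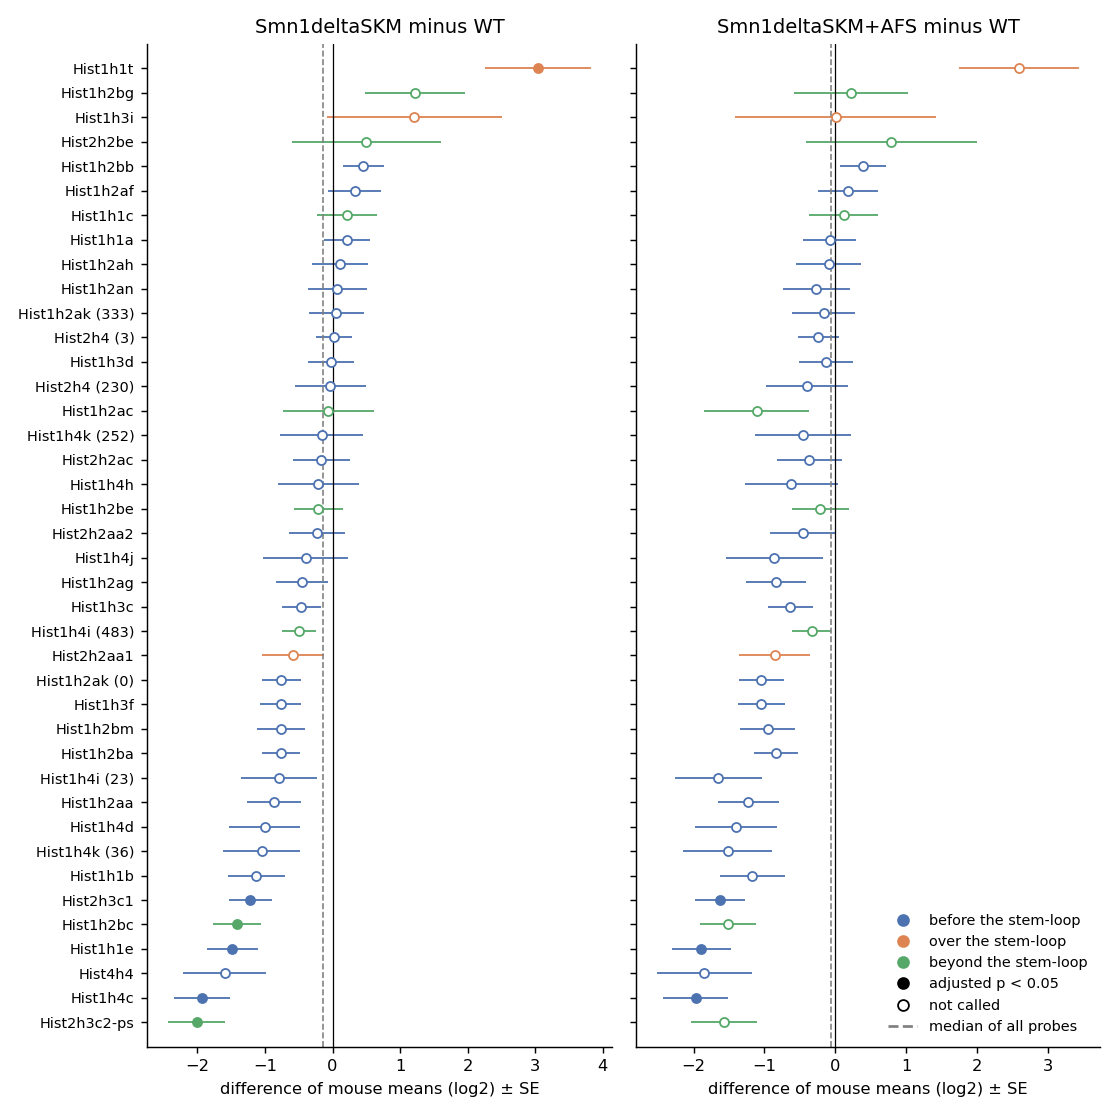
Difference of mouse means on the log2 scale with its standard error for the 40 tested histone probes, Smn1deltaSKM minus WT on the left and Smn1deltaSKM+AFS minus WT on the right, coloured by the place of the probe. Filled points have an adjusted p under 0.05, the dashed line is the median of all 22154 probes tested, and a number in brackets is the first transcript base of a probe where a gene has a pair of probes; 6 points are filled on the left and 3 on the right.

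Genes with a pair of probes allow a look at different parts of a transcript. Hist1h2ak gave -0.76 (SE 0.29) at its start and 0.05 (SE 0.41) at base 333, in the near-identical H2A stretch. Hist1h4k gave -1.05 at base 36 and -0.16 at base 252. For Hist1h4i the values were -0.79 (SE 0.56) at base 23 and -0.50 (SE 0.25) at base 483, where keeping the flagged WT fiber 2 gave -0.19 (SE 0.35), and for Hist2h4 they were 0.03 and -0.03. No probe of these pairs was called. The difference between probes of a gene was not tested.

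The comparison of Smn1deltaSKM+AFS with Smn1deltaSKM asks what changed with the cell treatment. No histone probe was called in it, with a background of 0.00% of the 22154 probes called. None of the 40 had an unadjusted p under 0.05 (limma), a share that is not given here for all probes. Of the 40, 36 (90.0%) were lower in treated myofibers, against 41.0% of all probes, with a median of -0.27 beside 0.07. This direction rested on Smn1deltaSKM mouse 1: without it the median was 0.15, beside 0.09 over all probes. The 3 largest differences were those of Hist1h3i (-1.21, SE 1.29), Hist1h2ac (-1.05, SE 0.68) and Hist1h2bg (-0.99, SE 0.73), and these are probes that stood high in mouse 1. Hist1h2ac, an H2A gene, lay at -0.97 to 0.52 in mouse 1 and at -3.74 to -1.99 in the 7 treated myofibers, close to the -2.96 to -2.0 of Smn1deltaSKM mice 2 and 3. In 3 of 40 both treated mice lay below all Smn1deltaSKM mice (4.03% of all probes) and in 0 above (12.8%).

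The comparison of Smn1deltaSKM+AFS with WT uses the same WT mice as the first one, so both share their control samples and their scan batch. Of 40 histone probes, 3 (7.50%) were called, all lower, against 7.38% of all probes tested (3.03% higher, 4.36% lower). They were Hist1h1e (-1.89, SE 0.42, adjusted p = 0.0394), Hist1h4c (-1.97, SE 0.46, adjusted p = 0.0429) and Hist2h3c1 (-1.63, SE 0.35, adjusted p = 0.0358). In treated myofibers Hist1h1e lay at -1.33 to 0.30, Hist1h4c at 1.69 to 3.53 and Hist2h3c1 at 1.03 to 2.14, and of the WT myofibers only fiber 8 fell within these ranges. Hist1h2bc gave -1.52 (SE 0.39, adjusted p = 0.0532) and Hist1h1t 2.59 (SE 0.85, adjusted p = 0.0920).

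Most histone probes, and all of H4, had lower means in the treated mice than in WT, although few were called. Of the 40, 33 (82.5%) were below 0, against 53.1% of all probes, and the median was -0.63, beside -0.07. Both treated mice lay below both WT mice for 27 of 40 (37.1% of all probes; 30.7% of all lay above), among them all 11 H4 probes. The class medians were -0.86 for H4, -0.84 for H3, -0.46 for H2A, -0.21 for H2B and -0.08 for H1. The H1 median was close to that of all probes, but its 5 probes ran from -1.89 (Hist1h1e) to 2.59 (Hist1h1t). In 1 H4 gene, Hist4h4, and in Hist1h2bc every treated myofiber was below every WT myofiber, and in Hist1h1t every one was above. These are 2 and 1 of 40, beside 6.79% and 6.59% of all probes tested. For Hist4h4 the 7 treated values were 2.56 to 3.66 and the lowest WT value was 3.91. Its difference of -1.85 (SE 0.67) had an adjusted p of 0.115. Leaving out Smn1deltaSKM mouse 1, which enters here only through the shared spread, gave 19 calls, beside 29.3% of all probes, and leaving out either treated mouse or either WT mouse gave 0. The count was also 0 with quantile normalization.

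By mouse, the 40 tested probes had a median distance from the WT mean of 0.33 in Smn1deltaSKM mouse 1, -0.86 in mouse 2 and -0.49 in mouse 3, and of -0.64 and -0.68 in the treated mice. H4 gave 0.21, -1.37 and -0.70 in the Smn1deltaSKM mice and -1.0 and -0.73 in the treated mice. H3 was the class that was low in mouse 1 too, with -0.77, -0.70 and -0.40, then -0.56 and -1.12. The WT mice themselves were 0.06 on either side of their mean over the 40. Over all probes tested the medians were between -0.21 and -0.06 in the 5 knockout mice.

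**Figure D5:**
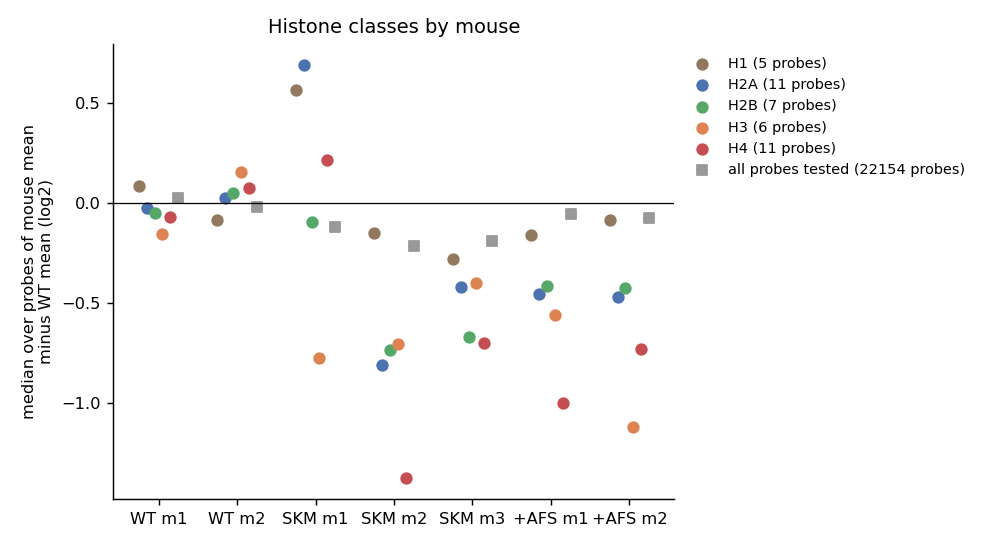
Median over the tested probes of each histone class of the mouse mean minus the WT mean, on the log2 scale, for the 7 mice (SKM is Smn1deltaSKM, +AFS is Smn1deltaSKM+AFS); squares give all 22154 probes tested. Smn1deltaSKM mouse 1 is above 0 for H1, H2A and H4 and below it for H2B and H3, and the other knockout mice are below 0 for every class.

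In bulk RNA, including that of 1 myofiber with its many nuclei, fewer cells or nuclei that express a gene and less RNA in each cannot be told apart. Markers of other cells moved between mice: the summed level of 6 satellite cell genes was -0.76 to 1.30 in WT, 0.06 to 1.63 in Smn1deltaSKM and 0.37 to 2.16 in Smn1deltaSKM+AFS. At most 4 of these 6 were detected on an array. Myf5 counted as detected on 7 WT, 11 Smn1deltaSKM and 7 Smn1deltaSKM+AFS arrays, but its medians were only -4.70, -5.64 and -5.23. Calcr, detected on no array, had -4.86, -5.71 and -5.28. The 4 stroma genes ran from -1.93 to 5.92, -1.04 to 4.33 and -1.45 to 4.03 in the same order. Top2a, a mitosis gene, was well above background on 1 array of each group. The part of such cells in the histone levels was not tested.

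The machinery that makes and ends histone RNA was given by a list of 32 genes, of which 29 were on the array and 18 were tested. Between Smn1deltaSKM and WT 5 of 18 (27.8%) were called, 1 higher and 4 lower, beside the 22.0% of all probes. Cstf2, a subunit of the cleavage stimulation factor shared with poly(A) sites, rose by 1.74 (SE 0.33, adjusted p = 0.0137), and its paralog Cstf2t fell by 1.81 (SE 0.38, adjusted p = 0.0184). Pou2f1, the OCT1 factor of the H2B promoter, fell by 1.47 (adjusted p = 0.0144), Upf1, which acts in histone RNA decay, by 1.14 (adjusted p = 0.0239), and Zcchc6, a uridylyltransferase, by 0.91 (adjusted p = 0.0464). Without Smn1deltaSKM mouse 1 the count was 13, beside 44.2% of all probes.

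The parts of the U7 snRNP itself could be read only in part. Lsm10 lay at 0.66 to 2.29 in WT (median 1.63) and at -0.23 to 1.36 in Smn1deltaSKM (median 0.65), a difference of -0.95 (SE 0.30, adjusted p = 0.0545). Lsm11 and Eri1, an exonuclease of histone RNA, were well above background on no array. Slbp gave -0.13 (SE 0.50, adjusted p = 0.862). In treated myofibers against WT, Cstf2 was 1.68 higher (adjusted p = 0.0354), and Cstf2t and Pou2f1 were called lower (adjusted p = 0.0420 for both). None of the 18 was called between treated and untreated mice.

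Histone genes outside the rule, most of them with introns and poly(A) tails, were read in the same way. Of 20 listed, 15 were on the array and 11 were tested, and 1 (9.09%, beside 22.0% of all probes) was called between Smn1deltaSKM and WT: H1foo, the oocyte linker histone, 1.35 higher (SE 0.38, adjusted p = 0.0385). H3f3b, which codes for H3.3, had 1.54 (SE 0.49, adjusted p = 0.0561), and H3f3a, for the same protein, -0.63 (SE 0.28, adjusted p = 0.129). H2afz gave -1.11 (SE 0.41, adjusted p = 0.0839). The median over the 11 was -0.15, equal to that of all probes to 2 decimals, and none was called in either comparison of the treated mice.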

How the data were processed

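Gene expression of 27 single tibialis anterior myofibers was measured on 1-colour Agilent arrays of 60-base probes, after 18 cycles of amplification of each myofiber's RNA. Such amplification can widen the spread of rare RNAs between myofibers. Per the file headers, the deposited scanner intensity values are background-subtracted processed signals of Feature Extraction 10.7.3.1, not scaled between arrays. The deposited value table of the authors, made equal in distribution between arrays, served as an alternative; its processed intensity values are linear and were taken to log2.

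Here the processed signal was taken to log2, each array's 75th percentile was subtracted and spots of a probe were averaged. Values not found, not well above background or with an outlier flag were left out of the fits, and probes with values on at least 75% of arrays (21 of 27) were kept, 22154 in all. Not tested were the histone probes of Hist1h1d, Hist1h2ab, Hist1h2ae, Hist1h2bp, Hist1h3a, Hist1h3g, Hist2h2ab, Hist2h2bb, Hist3h2a (outlier flags), Hist3h2ba and Hist3h2bb-ps. Mouse means (2 WT, 3 Smn1deltaSKM, 2 Smn1deltaSKM+AFS) were compared in 1 model with limma 3.58.1 (R 4.3.3), and p-values were adjusted by Benjamini-Hochberg over all probes tested; the script was tested on simulated data. A list gene was read from its probe of highest mean. Named probes were the called ones (up to 10 a comparison), the 6 with the highest mean among those on all arrays, the 3 largest differences of each comparison, probes on every array of a group and none of another, and pairs of opposite sign with 1 called; others are given by count or were named after their values were seen. The number of arrays limits the precision. Gene names are those of the array's design. The members and the lists were chosen with earlier results of these data known.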

Additional observations from a re-analysis of the deposited data

Results flagged for a closer look

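In the named probes, 30 groups of 7 or 8 myofibers were looked at for a value far from the rest, and 6 had one. Chance gives about 1 in 20 separate groups, but these groups are the same WT and treated arrays read for different probes. The 6 are therefore not separate outliers. WT fiber 8 recurs among them, and its median over the tested histone probes was 2.40, the lowest in WT (group median 3.81). WT fiber 8 was the lowest of 8 for Hist1h4c (3.13, next 4.56), for Hist2h2aa2 (4.37, next 5.74) and for Hist2h4 at base 230 (3.78, next 5.41). WT fiber 2 was the lowest for Hist1h4i at base 483 (4.97, next 7.31). Among the 7 Smn1deltaSKM+AFS myofibers, fiber 3 was the lowest for Hist1h2bc (1.35, next 1.89) and fiber 2 the highest for Hist1h3i (-0.03, next -1.27).

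A pair of H3 and H2B probes outside the tests were well above background on no WT and no Smn1deltaSKM+AFS array but on some Smn1deltaSKM arrays: Hist1h3g on 3 arrays and Hist3h2ba on 4 arrays, the latter all of mouse 1.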

How the results depend on the processing

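No named probe that was called changed its direction under any alternative run, but calls were lost. Of 20 alternatives, the call between Smn1deltaSKM and WT was lost in 11 for Hist2h3c1 (adjusted p up to 0.207), 7 for Hist1h1e, 6 for Hist1h2bc, 5 for Hist1h1t, 4 for Hist1h4c and 2 for Hist2h3c2-ps, and that between Smn1deltaSKM+AFS and WT in 11 for Hist1h4c (adjusted p up to 0.265) and in 8 each for Hist1h1e and Hist2h3c1. The count of histone probes called between Smn1deltaSKM and WT was 16 of 40 with myofibers as replicates (54.1% of all probes called), 2 with the slide as a random block (2378 of all 22154 probes), 10 without WT fiber 8 (26.5%, an alternative added after the data were seen) and 0 to 17 when a mouse was left out, with a median from -0.69 to -0.082. Without the Smn1deltaSKM arrays of scan day 1 the median was -0.015, above the -0.17 of all probes. Between Smn1deltaSKM+AFS and WT the count was 0 with quantile normalization (3.79% of all probes called), 1 in the authors' value table (3.76%), 5 with measured signals kept (11.4%), 11 with the mouse as a random block (20.2%), 17 with myofibers as replicates (41.3%), 6 without WT fiber 8 (9.73%) and 0 to 19 when a mouse was left out. Between Smn1deltaSKM+AFS and Smn1deltaSKM every alternative with a test called 0 histone probes. The median was -1.08 on scan day 1 alone, where 1 Smn1deltaSKM mouse is set against 1 treated mouse with no test, and from -0.50 to 0.15 when a mouse was left out.

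The count of processing factors was 3 with quantile normalization or median scaling, 10 with the mouse as a random block, 13 with myofibers as replicates, 2 with the slide block, 8 without WT fiber 8 and 0 to 13 when a mouse was left out. That of the other histone genes was 3 with median scaling, 2 with measured signals kept, 6 with the mouse block, 7 with myofibers as replicates, 0 with the slide block, 2 without WT fiber 8, 4 without the Smn1deltaSKM arrays of scan day 1 and 0 to 5 when a mouse was left out. The count of histone probes high in Smn1deltaSKM mouse 1 was 16 without scaling and 14 with quantile normalization. The causes were not tested.

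With the mouse number as a replicate block, 2 histone probes were called between Smn1deltaSKM and WT, 3 between Smn1deltaSKM+AFS and WT and 0 between the knockout groups, beside 3 processing factors and 0 of the other histone genes. Same-numbered mice come from different animals and correlated between -0.05 and 0.30, so the numbers are names only.

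Scaling to the median of probes on all arrays moved the median of all probes between Smn1deltaSKM and WT from -0.15 to 0.08, and that of the 40 histone probes to -0.09. Weak signals limit 10 histone probes that were not tested, among them 5 of 8 over the stem-loop, and outlier flags kept out Hist3h2a.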
